A study of Mus musculus with 4 samples.

Results

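Cluster 02 is the set of brain cells that the study's authors assigned to the second of their 8 clusters of single-cell transcriptomes. It was taken from their file of cells by its cluster label alone, and it holds 580 of the 3023 cells. These cells stand out by depth: they are 19.2% of all cells and hold 38.1% of all unique molecular identifiers (UMIs), the tags that mark each captured transcript, at 10310318 of 27069130. Microglia, the resident macrophages of the brain, were sorted from male mice of 12 to 14 months as live CD11b+ CD45low cells, 30000 from a hemibrain, and 2 hemibrains were pooled into each of 4 libraries. The 4 groups, with 1 library each and all kept 12 weeks on their diet, were Trem2 +/+ on control diet, Trem2 +/+ on 0.2% cuprizone, Trem2 +/- on 0.2% cuprizone and Trem2 -/- on 0.2% cuprizone; they are called control, wild type, heterozygote and knockout below, the last 3 being the cuprizone-fed groups. Cuprizone is a copper chelator that strips myelin from the brain by killing oligodendrocytes. A Trem2 -/- group on control diet was not analysed here.

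Microglia survey the brain through long processes, and under stress or demyelination they take up debris and switch on lipid, lysosomal and antigen-presentation genes, partly through the lipid receptor TREM2. The number of UMIs from a cell depends on how much RNA it holds and on how well that RNA was captured, so a deep cell can be a large or active cell, a well captured one, or a droplet with more than 1 cell. The genes proposed as markers of cluster 02 are Nuak1, which encodes a kinase of the AMPK-related family that is activated by LKB1, and Zbtb18, which encodes a zinc finger transcription factor best known as a repressor in developing neurons.

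The stretches of 250 bases before the start sites of both genes are shown because these 2 genes were proposed as markers of the cluster and were both higher in it in all 4 libraries. They come from RefSeq on GRCm38.p6: chr10:84440669-84440918, minus strand, for Nuak1 and chr1:177442101-177442350, plus strand, for the first of the 5 start sites listed for Zbtb18. Each runs 5′ to 3′ towards the start site, and capitals mark the letters GGGCGG or their reverse complement, the GC box, searched on both strands, where neighbouring matches can run together.
Nuak1: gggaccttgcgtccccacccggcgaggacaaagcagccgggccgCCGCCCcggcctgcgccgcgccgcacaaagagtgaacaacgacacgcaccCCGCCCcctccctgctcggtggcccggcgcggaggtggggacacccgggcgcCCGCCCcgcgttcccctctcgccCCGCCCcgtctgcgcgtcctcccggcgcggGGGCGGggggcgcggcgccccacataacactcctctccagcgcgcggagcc
Zbtb18: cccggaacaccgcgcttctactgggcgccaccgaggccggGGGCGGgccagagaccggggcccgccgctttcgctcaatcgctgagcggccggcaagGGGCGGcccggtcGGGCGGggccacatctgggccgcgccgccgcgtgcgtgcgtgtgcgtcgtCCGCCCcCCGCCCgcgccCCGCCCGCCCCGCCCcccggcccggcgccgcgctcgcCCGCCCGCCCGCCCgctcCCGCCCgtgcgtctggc
Counted without overlap, the Nuak1 stretch held 5 GC boxes and 38 CG dinucleotides, and the Zbtb18 stretch held 10 and 47. None of the other 4 Zbtb18 stretches held a GC box. Over the first listed stretch of each gene, 72.4% of 370 genes higher in cluster 02 held a GC box, 62.0% of 4955 genes tested, 58.3% of 36 genes lower in cluster 02, and 32.9% of all 27025 genes in the table. The palindromes TGACGTCA (the cAMP response element) and CACGTG (an E-box) were in 2.97% and 8.11% of the higher genes and in 2.99% and 9.45% of the genes tested; TGACTCA (an AP-1 site), on either strand, was in 1.62% and 2.62%. A match is a run of letters and no measurement of binding.

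Depth was the plainest mark of cluster 02. The median was 18462 UMIs per cell in control, 18453 in wild type, 17848 in heterozygote and 14872 in knockout, with single cells between 2077 and 37781. In the other clusters the medians over all libraries ran from 3387 in cluster 01 to 10695 in cluster 04. Of the 283 cells with at least 20000 UMIs, 221 (78.1%) were in cluster 02, 31 in cluster 07, 26 in cluster 04, 3 in cluster 03 and 2 in cluster 08. The cells of cluster 02 were 13.5% of the control library (95% exact binomial interval 10.8 to 16.6), 19.1% of wild type (16.4 to 22.1), 17.96% of heterozygote (15.4 to 20.8) and 24.1% of knockout (21.3 to 27.0). The control and knockout intervals do not meet, but each group has 1 library, so the spread between mice is unknown and no test was run.

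**Figure D1:**
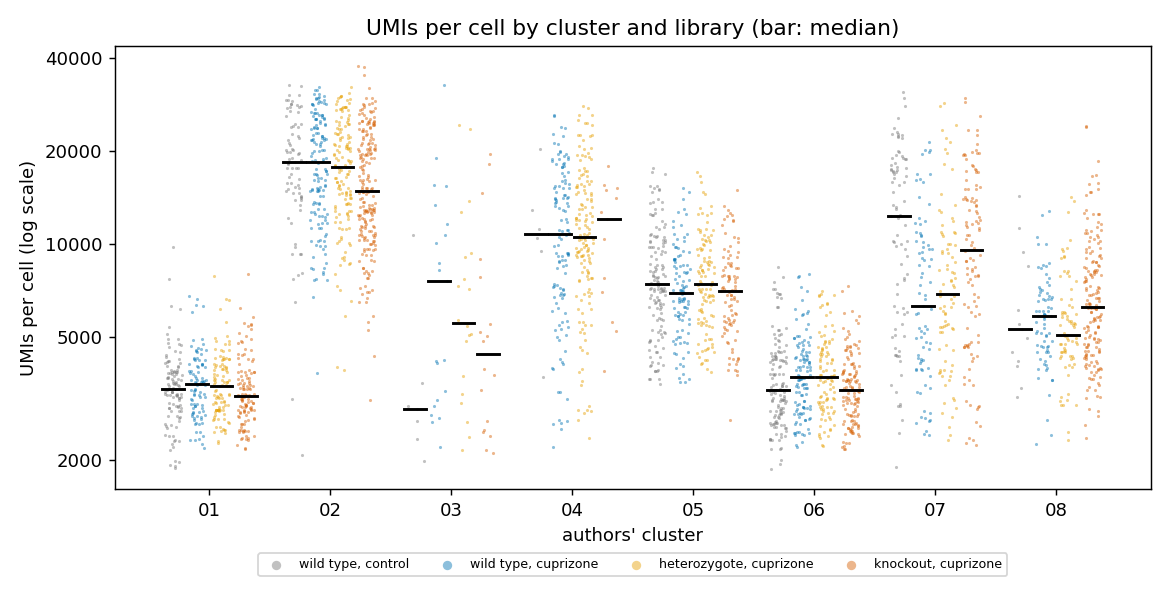
UMIs per cell on a log axis for the 8 clusters, with 1 point per cell, colours for the 4 libraries and a bar at each library's median. Cluster 02 has medians between 14872 and 18462 UMIs and is the cluster with the highest median in every library.

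Barcodes and doublets were looked at before the genes. There were 8 barcodes found in 2 libraries each (16 cells), and 2 of those cells were in cluster 02. Scrublet, run on each library, called 12 of the 3023 cells (0.397%) doublets, a rate too low to count as a working caller, and 5 of the 12 were in cluster 02. The median doublet score was 0.10 in cluster 02 and 0.0407 to 0.0732 in the other clusters. Doublets were therefore kept, and their part in the depth of cluster 02 was not tested.

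Thinned to the same number of UMIs, cells of cluster 02 held about as many genes as other microglia. Unthinned, the median was 3877 genes per cell in cluster 02 and 1734 in the other 5 clusters of the microglial pool (01, 04, 05, 06 and 08, called the rest from here on). After every cell was thinned to 2915 UMIs, which kept 579 of 580 cells of cluster 02 and 1752 of 2010 of the rest, the medians were 1278 and 1268 genes. By library the thinned median of cluster 02 was 1316 genes in control, 1277 in wild type, 1273 in heterozygote and 1268 in knockout, and its ratio to the rest lay between 1.01 and 1.02. Cluster 05 held 1320 genes at this depth, cluster 01 held 1308, cluster 08 held 1177 and cluster 04 held 1160. At equal depth cluster 02 therefore lay inside the range of the other clusters.

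Against the rest, the genes higher in cluster 02 included 9 of 23 tested chromatin regulators, 4 of 5 tested border-macrophage markers and the chemokine genes Ccl7 and Ccl8, and the lower genes included 3 of 9 tested TREM2-dependent genes of disease-associated microglia (DAM). UMIs were summed over the cells of a side within a library and scaled to CPM, the count in each 1000000 UMIs of that side. A gene counted as higher or lower where the geometric mean of the 4 within-library ratios passed 1.5-fold, all 4 ratios lay on that side of 1, and every library had at least 50 UMIs. Of 6470 genes tested, 475 (7.34%) were higher and 45 (0.696%) lower, and the median log2 ratio over all genes tested was -0.01. After thinning every cell to 2915 UMIs only 3136 genes kept enough UMIs. Of these, 91 were higher, 72 of them among the 475, and 68 were lower, 7 of them among the 45. With or without enough UMIs, 465 of the 475 higher genes still had a mean ratio above 1, 331 of them past 1.5-fold. The thinned UMIs are drawn from the same counts, so a kept direction is no separate support. With both sides limited to cells of 9244 to 27775 UMIs, 158 of 4156 genes were higher, 124 of them among the 475, and 33 were lower, 7 of them among the 45. The limit also changes the makeup of the rest, to 180 cells of cluster 04, 117 of cluster 05, 54 of cluster 08, 1 of cluster 01 and 0 of cluster 06, so depth and makeup change together in these values. In cells of 10000 to 15000 UMIs the 475 higher genes summed to 24945 CPM in cluster 02 and 24864 in cluster 05. They summed to 14442 CPM in cluster 04, 17492 in cluster 08 and 26884 in cluster 07. The 45 lower genes summed to 4395, 4351, 10067, 5305 and 3492 CPM in the same order. At that depth cluster 05 was thus close to cluster 02 in both sums, in which abundant genes weigh most. At 2-fold, in the unthinned counts, there were 45 higher genes and 1 lower gene, Lgals3. Because the clusters were built from these cells, this comparison is a description with no test. Nuak1, Zbtb18, Ccl8 and Cd209f are not among the 4895 genes that the authors' file marks as analysed for the clustering, but other genes of the same cells are. The higher genes called by this rule lay mostly at low levels. Tested genes were split into 5 equal classes by level in the rest. The lowest class held 251 higher genes (19.4% of that class) and the highest 24 (1.85%). The minimum of 50 UMIs counts both sides together, so a gene low in the rest can pass it through its level in cluster 02. The count in the lowest class therefore depends on that minimum. With a minimum of 200 UMIs in every library, 84 of 2512 genes were higher.

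Nuak1 stood at 133.8 CPM in cluster 02 against 61.0 CPM in the rest in control, 117.2 against 49.3 in wild type, 111.3 against 53.2 in heterozygote and 96.0 against 44.5 in knockout. Each of its 4 levels in cluster 02 was above all 4 levels in the rest, and the mean ratio was 2.20-fold (range 2.09 to 2.38). Zbtb18 was at 50.8 against 27.0 CPM in control, 45.8 against 16.0 in wild type, 51.5 against 20.6 in heterozygote and 47.1 against 20.6 in knockout, 2.36-fold on average (1.88 to 2.87). Against single clusters of the pool the mean Nuak1 ratio ran from 1.65-fold over cluster 05 to 3.72-fold over cluster 04, and it was 1.99-fold over cluster 07. Nuak1 (GRCm38 chr10:84370905-84440597, minus strand) and Zbtb18 (chr1:177442351-177450764, plus strand) are both protein-coding.

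Of their families, 5 of 16 tested genes of AMPK-related kinases and the LKB1 complex were higher, Nuak1 itself among the 5, and none lower. Over all genes tested 7.34% were higher. The median log2 ratio of the family was -0.03, so most of it did not share the pattern of Nuak1. Mark2, a kinase of microtubule-binding proteins, was higher by 1.74-fold, and Prkab1, a regulatory subunit of AMPK itself, was at 0.875-fold. Of 12 tested ZBTB genes 3 were higher, Zbtb18 itself among them. Zbtb4, a reader of methylated DNA, was 1.79-fold higher, while Zbtb20 and Zbtb7a were at 1.45-fold and 1.40-fold and missed the limit.

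Among the other leading genes were some of other functions with ratios close together in the 4 libraries. Hnrnpa0, an RNA-binding protein, was 2.43-fold higher (2.15 to 2.80), Ube2m, the conjugating enzyme for NEDD8, 2.37-fold (2.11 to 2.76), and Slc25a28, a mitochondrial iron carrier, 2.39-fold (1.995 to 2.84). Sh3pxd2a, a scaffold of podosomes, was 2.61-fold higher (2.18 to 3.16) at only 17.6 CPM, and Rab21, a small GTPase of early endosomes, 2.34-fold (1.71 to 3.31) at 20.6 CPM.

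Chemokines and markers of border-associated macrophages, the macrophages of meninges and vessels, led the list by size but not by evenness. Ccl7, a monocyte chemoattractant, was at 183.9 CPM in cluster 02 against 34.4 in the rest in control, 170.7 against 47.9 in wild type, 91.9 against 30.3 in heterozygote and 19.996 against 11.3 in knockout, 3.18-fold on average (1.77 to 5.35). Ccl8, a related chemokine, was 3.09-fold higher (1.42 to 5.83), Cd209f, a lectin, 2.77-fold (1.25 to 4.23), and F13a1, a transglutaminase, 2.61-fold (1.67 to 7.16). The mannose receptor gene Mrc1 was 2.43-fold higher (1.67 to 3.92) and Pf4, a platelet-type chemokine, 2.29-fold (1.74 to 3.80). Measured against all 7 other clusters in place of the rest, which adds clusters 03 and 07, these 6 genes were lower in cluster 02, with mean log2 ratios of -0.60 for Ccl8 to -1.23 for Cd209f.

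**Figure D2:**
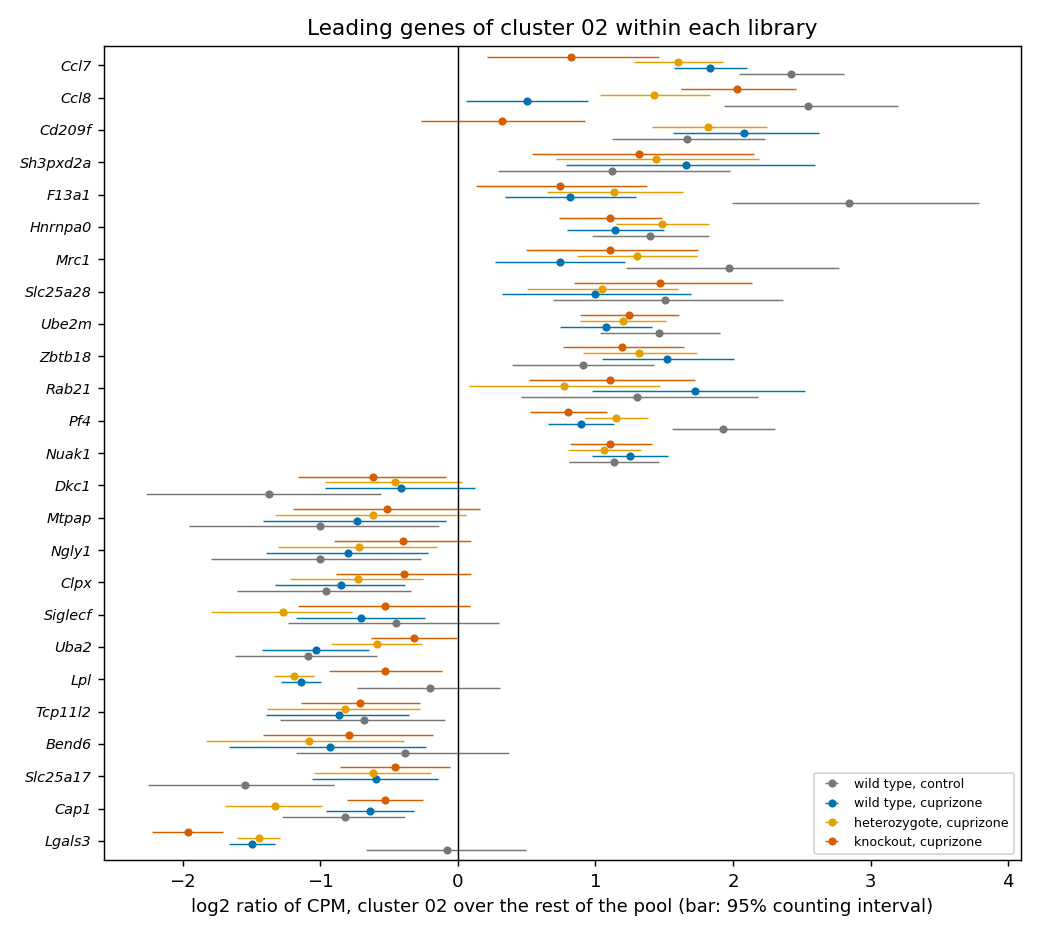
Log2 ratio of CPM in cluster 02 over the rest of the pool for the 2 marker genes and the 12 lower and 11 further higher genes named by the rule, 1 point per library with its 95% counting interval. Nuak1 and Hnrnpa0 have tight groups of points, while Ccl8 and F13a1 spread from 1.42 and 1.67 to 5.83 and 7.16-fold.

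None of the 10 border-macrophage markers was at 0 in any library. Of the 10, 5 had enough UMIs, 4 were higher, and the median log2 ratio was 1.28. Summed over the 10, cluster 02 had 388.4 CPM in control, 349.5 in wild type, 399.5 in heterozygote and 208.0 in knockout, against 103.1, 208.9, 211.0 and 128.4 in the rest and 2424 to 3664 in cluster 07. At 2915 UMIs a cell, 70 of 579 cells of cluster 02 (12.1%, exact interval 9.55 to 15.03) had at least 3 UMIs of these markers, against 65 of 1752 in the rest (3.71%, 2.87 to 4.70), 35 of 281 in cluster 04 (12.5%), 7 of 448 in cluster 05 (1.56%) and 276 of 343 in cluster 07 (80.5%). The UMIs were spread over cells: the top cell held 5.03% to 6.89% of a library's sum, and 10 to 16 cells held its larger part. By depth, the sum in cluster 02 was 196.5 CPM in cells of 6000 to 10000 UMIs, 159.1 at 10000 to 15000, 289.3 at 15000 to 20000 and 398.3 at 20000 or more. In the rest it was 167.1, 163.2, 416.3 and 479.3 CPM in the same bins, with cluster 04 giving 55 of the 73 and 26 of the 28 cells of the last pair. In cluster 05 it was 75.5 and 83.9 CPM in the first pair, and in cluster 04 it was 323 and 237 there and 517 and 516 in the last. In cells of like depth, the sum in cluster 02 was thus above that of cluster 05, below that of cluster 04 and, from 10000 UMIs up, at or below that of the rest. The part of border macrophages or of doublets with them in the higher genes was not tested beyond this.

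The next pattern was in regulators of transcription. Of 23 tested chromatin regulators 9 were higher and none lower, with a median log2 ratio of 0.53, and 18 were above 1 in all 4 libraries. The summed list was highest in cluster 02 in every library, but the gap differed between clusters. In wild type the sum was 1239 CPM in cluster 02, 1072 in cluster 01 and 1085 in cluster 05. It was 814, 769 and 703 CPM in clusters 04, 06 and 08. In control it was 1373 CPM in cluster 02 and 1275 in cluster 07. Arid1a, a subunit of the BAF remodelling complex, was at 141.4 against 81.6 CPM in control, 131.2 against 58.6 in wild type, 127.7 against 69.7 in heterozygote and 117.7 against 74.3 in knockout, 1.83-fold on average. Kmt2c, a histone H3 lysine 4 methyltransferase, was 1.72-fold higher, and Ncor1, a corepressor, was at 1.09-fold. Polr2a, the largest subunit of RNA polymerase II, was 1.68-fold higher and the elongation factor gene Supt6 1.77-fold, 2 of the 3 higher genes among 17 tested for RNA polymerase II and general transcription. The median over that list was 0.13, close to the genes tested as a whole.

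Transcription factors of microglial identity were partly higher. Of 18 tested, 5 were higher and none lower, and the median log2 ratio was 0.29. Against single clusters the picture differed: the summed list was higher in cluster 01 than in cluster 02 in every library. In wild type the sum was 6234 CPM in cluster 02, 6891 in cluster 01 and 6150 in cluster 05. Clusters 04, 06 and 08 were lower there, at 4541, 4741 and 4832 CPM. Sall1, which keeps microglia apart from other macrophages, was at 192.2 against 133.4 CPM in control, 174.8 against 86.2 in wild type, 182.6 against 88.3 in heterozygote and 161.1 against 94.6 in knockout, 1.79-fold on average. Mef2d was 1.84-fold higher, while Cebpb was at 1.24-fold. Of the 13 microglia markers all were tested, 2 were higher, and the median was -0.21. The fractalkine receptor gene Cx3cr1 was 1.90-fold higher at 3376 CPM on average. The list of homeostatic genes had a median of -0.18 with 2 of 18 higher, Cx3cr1 and Sall1. All 13 microglia markers had UMIs in cluster 02 in all 4 libraries.

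A few activity-response genes passed the limit, and no mitochondrially encoded transcript or ribosomal protein gene did. Of 18 immediate early and dissociation response genes 3 were higher, with a median of 0.17. The summed list was lower in cluster 02 than in clusters 01 and 05 in every library, and above clusters 04, 06 and 08. In wild type it was 28367 CPM in cluster 02, 48751 in cluster 01 and 30534 in cluster 05. In clusters 04, 06 and 08 it was 16773, 8450 and 20912 CPM there. Nr4a1, an orphan nuclear receptor, was 2.06-fold higher and Egr1 1.76-fold, while Jun and Junb were at 1.05-fold and 1.18-fold. All 12 tested mitochondrially encoded transcripts had a mean ratio above 1 and 11 were above 1 in every library, with a median of 0.43, but none passed 1.5-fold; mt-Co1 was at 1.496-fold, just under the limit. Of 82 ribosomal protein genes 68 were above 1 in all 4 libraries, with a median of 0.18 and none past the limit. Their sum was higher in cluster 08 than in cluster 02 in every library, at 159077 against 150078 CPM in wild type. There it was 153389 CPM in cluster 04 and lower in clusters 01, 05 and 06, at 85731, 109895 and 123312. Hk2, a hexokinase, was 1.81-fold higher, against a median of -0.42 for the 13 tested genes of glycolysis.

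Lysosomal genes were below the rest without passing the limit, and some disease-associated genes were lower. All 18 tested lysosome genes had a mean ratio below 1 and 16 were below 1 in all 4 libraries, with a median of -0.35 and none past 1.5-fold. Ctsd, the protease cathepsin D, was at 7677 against 9862 CPM in control, 7909 against 11362 in wild type, 7789 against 12331 in heterozygote and 8948 against 11604 in knockout. Of the 9 tested genes of the TREM2-dependent stage of DAM 3 were lower: the lipase gene Lpl by 1.70-fold, the chemokine gene Ccl6 by 1.54-fold and the tetraspanin gene Cd9 by 1.52-fold. Single clusters differed. In wild type that list summed to 7125 CPM in cluster 02 and 6868, 7255, 8244 and 8441 in clusters 01, 05, 06 and 08. It was 12665 CPM in cluster 04. The list of lipid droplet and fatty acid genes, which holds Lpl, was at 453.9 CPM in cluster 02 there. It was at 302.6, 312.9, 314.8 and 281.1 CPM in clusters 01, 05, 06 and 08, and at 1608 in cluster 04. Of the 7 genes of the TREM2-independent stage none was lower, with a median of -0.22, and their summed ratio to the rest was 1.07 in control and 0.708 to 0.767 in the cuprizone-fed libraries. In wild type their sum in cluster 02, 44316 CPM, lay between the clusters of the rest, with 28940 in cluster 01, 31908 in cluster 05, 34551 in cluster 06, 53143 in cluster 08 and 95150 in cluster 04. The galectin gene Lgals3 was at 29.5 against 31.2 CPM in control, 139.9 against 394.4 in wild type, 156.7 against 426.5 in heterozygote and 47.1 against 183.5 in knockout. Its gap was in the 3 cuprizone-fed libraries, and the control levels differed little. Of the proteasome list 13 of 18 were below 1 in all 4 libraries, and 1, Psmd2, was lower by 1.61-fold. Among TREM2 signalling partners 3 of 11 were higher, with Inpp5d, a lipid phosphatase, at 1.62-fold and the adaptor Grb2 at 1.54-fold, while Tyrobp, the partner of TREM2, was at 0.962-fold and Trem2 at 0.930-fold. The actin regulator Cap1 was 1.78-fold lower and the initiation factor gene Eif4a1 1.55-fold lower.

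The other lower genes named by the rule had diverse functions. Slc25a17, a carrier of peroxisomes, was 1.74-fold lower, Clpx, a mitochondrial protease subunit, 1.66-fold, Uba2, a subunit of the SUMO-activating enzyme, 1.69-fold, Ngly1, a deglycosylating enzyme, 1.66-fold, Mtpap, a mitochondrial poly(A) polymerase, 1.64-fold and Dkc1, which modifies ribosomal RNA, 1.64-fold. Bend6, Tcp11l2 and Siglecf, the last a sialic acid receptor, were 1.67-fold to 1.74-fold lower. Of the 45 lower genes 12 had counting intervals that excluded 1 in all 4 libraries, and of the 475 higher genes 233 did. Among the genes named here, the interval of Siglecf reached 1.23 in control and that of Mtpap 1.12 in knockout.

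The higher genes were long. Among protein-coding genes, the 463 higher genes had a median length of 56445 bases from start to end, against 21835 for the 6220 tested and 21739 for the 43 lower. Their median exonic length was 5513 bases against 2863 and 2651, their median 3′ untranslated region (UTR) 2264 bases against 1072 and 867, and their median number of exons 14 against 9 and 11. GC content did not set them apart, at 50.6% against 50.2% for the genes tested. The gap in UTR length was present in each of 3 classes of genes by level, with 2235 against 1350 bases in the lowest class, 2455 against 1096 in the middle and 1727 against 791 in the highest. Over all tested genes, with no call used, split into 4 equal classes by exonic length, the class of longest genes had a median log2 ratio of 0.27, and the others, from the shortest up, had -0.02, -0.15 and -0.03. In that longest class the median was 0.20 in control, 0.30 in wild type, 0.34 in heterozygote and 0.26 in knockout. With cells of both sides limited to 9244 to 27775 UMIs, which leaves mostly clusters 04 and 05 in the rest, it was 0.29, against cluster 05 it was 0.11 and against cluster 07 it was 0.23.

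**Figure D3:**
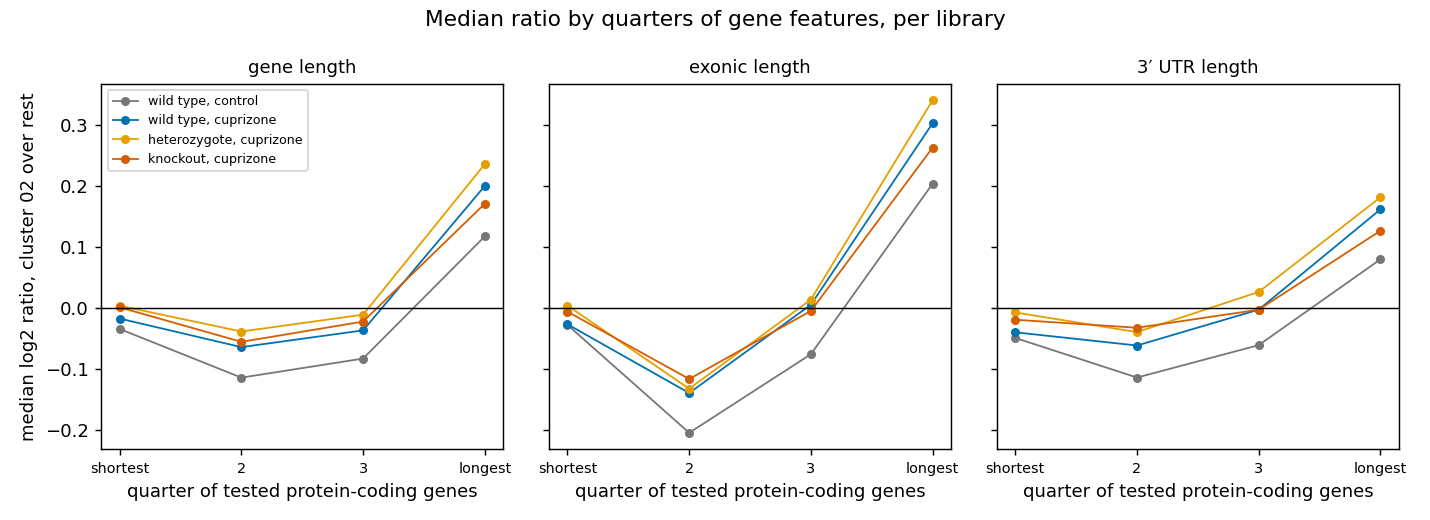
Median log2 ratio of cluster 02 over the rest (vertical axis) for 4 equal classes of the tested protein-coding genes by gene length, exonic length and 3′ UTR length (horizontal axes), 1 line per library. In every library the longest class lies above 0 and above the other 3, at 0.20 to 0.34 for exonic length.

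Summed over libraries, Nuak1 was higher in the deeper cells of cluster 02, but not within every library. Over the 4 libraries, cells of cluster 02 with 6000 to 10000 UMIs (67 cells) had 76.1 CPM of Nuak1 (exact Poisson interval 55.1 to 102.6), those with 10000 to 15000 (155 cells) had 94.8, those with 15000 to 20000 (126 cells) had 102, and those with 20000 or more (221 cells) had 123 (114 to 133). In the rest the levels in the same bins were 47.7, 57.0, 58.1 and 71.5 CPM. At 10000 to 15000 UMIs, Nuak1 was at 88.2 CPM in cluster 05 (70.1 to 109.5) and 32.2 in cluster 04 (21.9 to 45.7), so clusters 02 and 05 had overlapping intervals there and cluster 04 lay below both. Zbtb18 was at 37.1 CPM in cluster 02 at that depth (29.0 to 46.7), 24.7 in cluster 05 (15.7 to 37.1) and 6.22 in cluster 04 (2.28 to 13.5).

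Since the libraries differ in depth, each was also split at 15000 UMIs, a limit chosen after seeing the data. For Nuak1 the cells of cluster 02 under and at or above it had 149 and 131 CPM in control, 116 and 118 in wild type, 85.0 and 119 in heterozygote and 71.3 and 108 in knockout. The intervals were apart in knockout (56.8 to 88.4 against 95.4 to 122.5) and overlapped in the other 3 libraries, and in control the shallower cells had the higher value. The slope of the summed cells therefore mixes depth with differences between libraries. Zbtb18 had 40.3 and 53.0 CPM in control, 47.1 and 45.5 in wild type, 27.2 and 58.5 in heterozygote and 36.1 and 52.7 in knockout, with intervals apart in heterozygote. Mitochondrially encoded transcripts were at higher levels in the deeper cells in all 4 libraries, with 14674 and 15679 CPM in control, 13842 and 18644 in wild type, 13691 and 17779 in heterozygote and 12326 and 17386 in knockout.

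In bins of like depth mitochondrial transcripts in cluster 02 were at 12284 CPM at 6000 to 10000 UMIs, 13348 at 10000 to 15000, 14811 at 15000 to 20000 and 18663 at 20000 or more. In the rest they were at 12148, 13202, 14370 and 17281 CPM. The rest mixes clusters here too: cluster 05 was at 10228 and 11085 CPM in the first pair of bins, below cluster 02, and cluster 04 was at 15626 and 15084, above it.

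**Figure D4:**
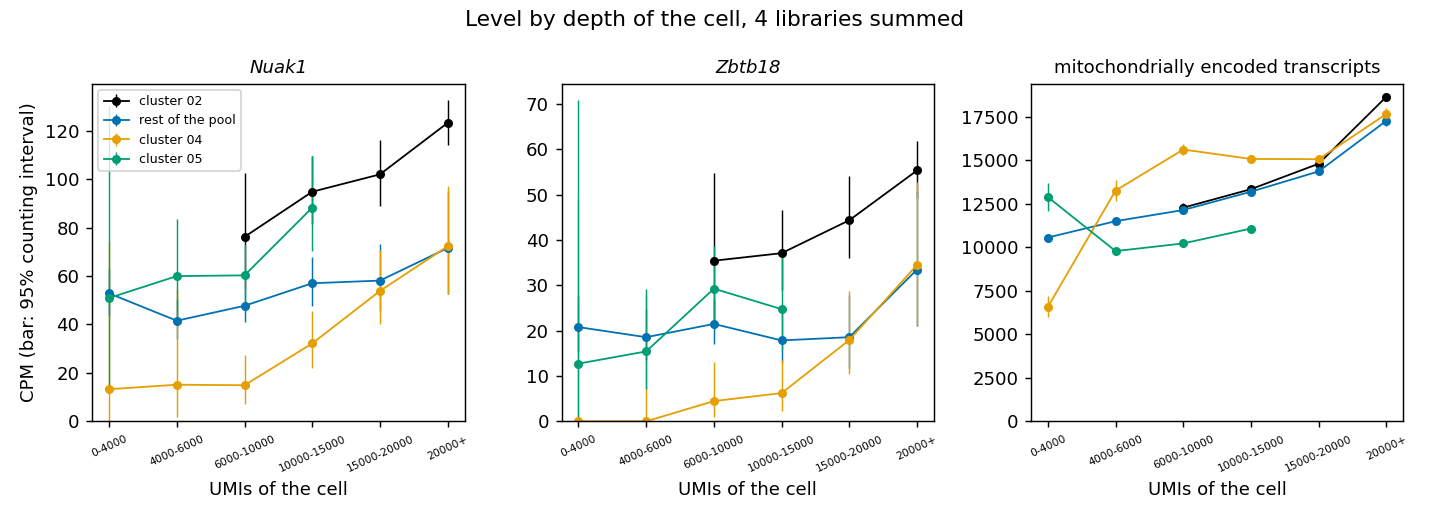
CPM of Nuak1, Zbtb18 and the mitochondrially encoded transcripts (vertical axes) against the UMIs of the cell (horizontal axes), for cluster 02, the rest of the pool and its clusters 04 and 05, 4 libraries summed, with 95% counting intervals and bins of fewer than 20 cells left out. At 10000 to 15000 UMIs the mitochondrial level of cluster 02, 13348 CPM, lies between those of clusters 05 and 04, at 11085 and 15084.

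By abundant genes the nearest to cluster 02 were clusters 07 and 08. With each cluster's counts thinned to 340425 UMIs in a library, the median absolute log2 ratio over the 671 genes of at least 200 CPM was 0.19 against cluster 07, 0.20 against cluster 08, 0.25 against cluster 04, 0.28 against cluster 05, 0.30 against cluster 06 and 0.41 against cluster 01. Clusters of under 50 cells in a library were left out of this, so cluster 04 has 2 libraries and cluster 08 has 3. The order of clusters 04 and 05 is not read, since they rest on different libraries and the values of cluster 05 ran from 0.23 to 0.33. By the 1.5-fold rule, 192 genes (3.61%) were higher and 155 (2.92%) lower in cluster 02 than in cluster 07, of 5314 tested. Against cluster 05 there were 218 (4.02%) and 161 (2.97%) of 5421, and against cluster 04, in 3 libraries, 1257 (20.9%) and 251 (4.17%) of 6021. Against cluster 08 there were 585 (15.1%) higher and 22 (0.569%) lower of 3867, so the order by these counts is not that by abundant genes.

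Single cells of cluster 02 differed most in S100a8, a neutrophil marker, Apoe, the lipid carrier, Jchain, the immunoglobulin joining chain, and Actb, an actin gene. The measure was the variance of UMIs over their mean at 2915 UMIs a cell, averaged over libraries. A library with no thinned UMIs of a gene entered that mean as 1. For Jchain only control had such UMIs, with a value of 92. For S100a8 it was 31.2, and 1 cell held 44.7% of the UMIs in heterozygote and 49.5% in knockout. For Apoe it was 28.7: the middle cell had 12 UMIs in control, 34 in wild type, 56.5 in heterozygote and 28 in knockout, and the top cell had 115, 169, 277 and 231. Actb reached 18.2, with 11 to 13 UMIs in the middle cell and 42.5 to 55.2 at the 90th percentile in every library. The other genes among the first 10 were the neutrophil markers S100a9, Camp and Ngp, and Spp1, Malat1 and Cst3. The value of Jchain, 23.8, came from 1 control cell, which also held 99.4% of the library's unthinned Jchain UMIs in the cluster, and 1 control cell held 84.6% of the thinned Spp1 UMIs there.

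Neutrophil RNA was mostly in 2 of the libraries. The 9 markers summed to 1.37 CPM in control, 45.4 in wild type, 1783 in heterozygote and 1126 in knockout in cluster 02, and 1 cell held 44.3% of the UMIs in heterozygote and 59.2% in knockout. There were 10 cells of cluster 02, 5 in heterozygote and 5 in knockout, with at least 10 UMIs of border-macrophage or neutrophil markers at equal depth. Results between libraries are therefore given with and without these cells where they change.

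Inside cluster 02, the cuprizone diet in wild-type mice went with more RNA of TREM2-dependent DAM, interferon and MHC class II genes. With 1 library a group there is no replicate check, intervals are exact conditional binomial and cover counting error only, and the animals' own differences cannot be told apart from the diet. Of 6801 genes, 33 (0.485%) were at least 2-fold higher and 33 (0.485%) lower, 12 of the latter being unnamed gene models. At 1.5-fold the shares were 1.53% higher and 3.56% lower. Apoe was at 15833 against 7019 CPM (2.26-fold, 2.21 to 2.31), Lpl at 191.6 against 35.0 (5.47-fold, 4.10 to 7.45), Cst7, a cystatin, at 239.2 against 59.0 (4.05-fold) and the TAM receptor gene Axl at 89.8 against 28.1 (3.19-fold). The integrin gene Itgax was at 35.2 against 4.12 CPM, 8.54-fold (3.78 to 23.9). Of the lists, 6 of 10 TREM2-dependent DAM genes, 6 of 11 further disease-associated genes, 8 of 16 interferon genes, 4 of 7 MHC class II genes and 6 of 17 cytokines were past 1.5-fold higher, and 1 cytokine was lower. Of 7 TREM2-independent DAM genes 1 passed and of 11 MHC class I genes none. None of 18 homeostatic genes passed, and their median log2 ratio was -0.20 against -0.07 over all genes.

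Few named genes were lower on cuprizone, and some rested on 1 cell. Ccl8 was 2.22-fold lower at 33.7 against 74.8 CPM, and 1.64-fold lower without the top cell of each library, which held 35.8% in control. Clasp2, which binds microtubule ends, was 2.36-fold lower. Jchain, with 0 UMIs in wild type, is the single control cell given above. Nuak1 and Zbtb18 were not past 1.5-fold in this or the following comparisons.

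The knockout held 509.9 CPM of Trem2 in cluster 02 against 2820 in wild type and 2937 in control, 5.53-fold lower than in wild type (5.25 to 5.83). Of 7766 genes 33 (0.425%) were at least 2-fold higher and 69 (0.888%) lower than in cuprizone-fed wild type, and 1.94% and 3.18% at 1.5-fold. Spp1, the secreted matrix protein osteopontin, was at 25.1 against 289.1 CPM (11.5-fold lower, 9.22 to 14.5), Lpl at 26.3 against 191.6 (7.29-fold lower) and Cd74, the MHC class II invariant chain, at 266.5 against 987.3 (3.70-fold lower). Ccl7 was 8.54-fold lower, Cxcl2 6.64-fold lower and the NADPH oxidase gene Cybb 5.30-fold lower. Past 1.5-fold lower were 8 of 11 further disease-associated genes, 11 of 17 cytokines, 5 of 7 MHC class II genes and 8 of 18 interferon genes. Cells of the knockout were shallower (14872 against 18453 UMIs), and 4 of 7 tested border-macrophage markers were lower with them (208.0 against 349.5 CPM summed). The part of either in these differences was not tested.

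The genes named as higher in the knockout included 4 neutrophil markers, S100a8, S100a9, Ngp and Camp. S100a8 was 33.0-fold higher at 484 against 14.7 CPM, and 2.25-fold without the marker-rich cells. Hist2h2aa1, a histone, was 2.46-fold higher and Ccl8 2.37-fold, the last with 41.8% of its knockout UMIs in 1 cell. Without the marker-rich cells 26 genes were higher and 73 lower.

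The heterozygote was set against the same wild-type library, so the comparisons share it. Trem2 was at 1692 against 2820 CPM, 1.67-fold lower (1.61 to 1.73). Of 7440 genes 23 (0.309%) were at least 2-fold higher and 11 (0.148%) lower, with 1.52% and 1.05% at 1.5-fold. The inducible chaperone genes Hspa1a and Hspa1b were 2.11-fold and 2.64-fold higher, Fabp5, a fatty acid carrier, 2.07-fold and Apoc1 2.27-fold, the last with 32.2% of its UMIs in 1 cell. Apoe was at 24172 against 15833 CPM, 1.53-fold higher (1.51 to 1.55). Vcam1, an adhesion molecule, was 2.67-fold lower, Pcp4 2.35-fold and the hydroxy acid receptor gene Hcar2 2.08-fold. S100a8 was 42.1-fold higher and 4.64-fold without the marker-rich cells. Of the 10 TREM2-dependent DAM genes only Trem2 itself was past 1.5-fold lower and none higher, and Lpl was at 197.5 CPM against 191.6. Without the marker-rich cells 17 genes were higher and 14 lower.

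**Figure D5:**
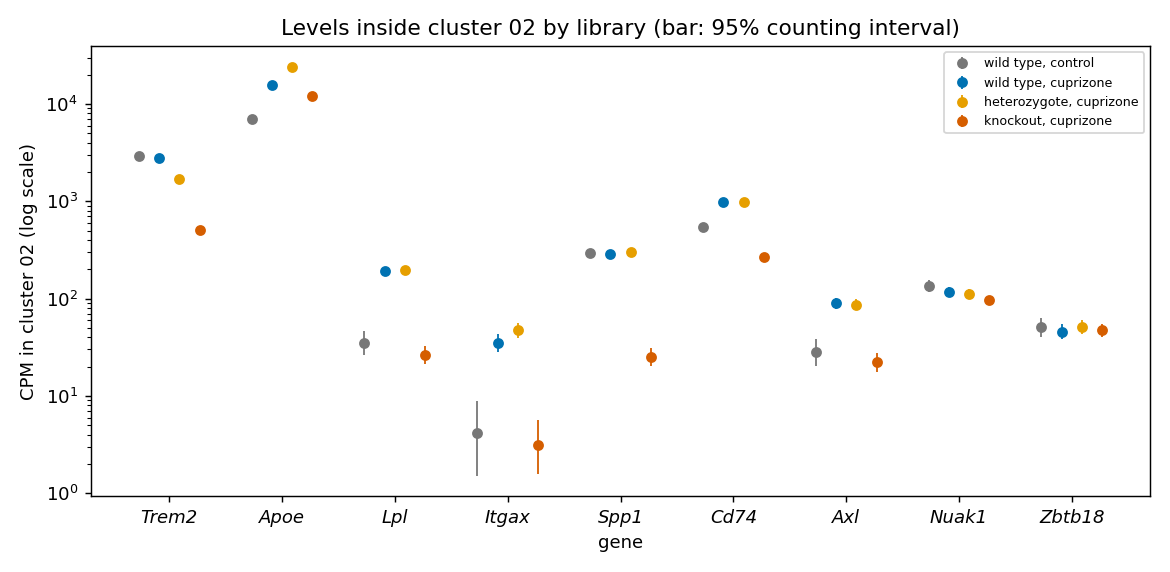
CPM in cluster 02 on a log axis for 9 genes, 1 point per library with its 95% counting interval. Trem2 runs from 2937 CPM in control to 509.9 in knockout, Lpl is at 191.6 and 197.5 CPM in wild type and heterozygote, and the control level of Spp1 comes mostly from 1 cell.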

How the data were processed

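Gene counts per cell were deposited by the authors as 1 table of UMI counts, 12800 genes by 3023 cells, with a table of cells that gives the library and the cluster; each gene has UMIs in at least 8 cells. Cell Ranger 2.1.1 and the mm10 build are named, per the submitters' processing notes, and the authors removed low quality cells and combined the 4 libraries, per the notes with the deposited files. How the clusters were set is not stated there. Library totals ran from 4747730 to 7849741 UMIs. From the counts, UMIs were summed by library and cluster and scaled to CPM. Ratios inside a library have exact conditional binomial intervals and levels exact Poisson intervals at the 95% level, and both cover counting error only. Cells were thinned without replacement to 2915 UMIs, the 10th percentile of the microglial pool. Clusters 03 and 07 were left out of the pool, which is a choice made here. Genes against the rest were named where they held at least 200 UMIs over the libraries, up to 12 a direction by mean ratio; genes inside cluster 02 needed a 2-fold ratio whose interval excludes 1 and at least 100 UMIs, up to 10 a direction, and at least 50 UMIs to be tested. List members were named as the 2 with most UMIs and the 2 with the largest ratio. Members and lists were chosen with earlier results of these data known. Some genes that the rules pick are not reported here. Gene features came from GENCODE vM21. Doublets were scored with Scrublet in scanpy 1.11.5, TMM factors came from edgeR 4.0.16 in R 4.3.3, and other steps used Python 3.11.15, numpy 2.4.6, scipy 1.17.1 and pandas 2.3.3. The scripts were tested on simulated data. Each group has 1 library of 2 pooled mice, so no test between groups was made.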

Additional observations from a re-analysis of the deposited data

Results flagged for a closer look

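For 5 genes the ratio of cluster 02 over the rest lay on opposite sides of 1 in the control and the cuprizone-fed wild-type library, and these differences were not tested, since each side is 1 library. The makeup of the rest differed as well. It held 6 cells of cluster 04 and 13 of cluster 08 in control, and 122 and 76 in wild type. A change of ratio is therefore not a change inside cluster 02 alone. Apoe was 1.96-fold the rest in control and 0.660-fold in wild type, while its level in cluster 02 was 7019 CPM in control and 15833 in wild type. Spp1 was at 2.49-fold and 0.130-fold, and 1 control cell held 84.6% of its UMIs at equal depth. Ifit3, an interferon-induced gene, was at 1.76-fold and 0.593-fold. The chemokine gene Ccl5 was at 4.21-fold and 0.269-fold. In control, 1 cell of cluster 02 held 47.5% of the UMIs of the T or NK cell markers, a list that holds Ccl5. Mbp, a myelin protein gene of oligodendrocytes, was at 1.75-fold and 0.650-fold, and 1 control cell held 35.7% of the oligodendrocyte marker UMIs there.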

How the results depend on the processing

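Against the rest, 475 genes were higher and 45 lower. The lower genes numbered 70 with TMM scaling and 118 against all 7 other clusters. Both counts changed with cells thinned to equal depth (91 and 68), with no minimum of UMIs (1133 and 219) and with a minimum of 200 UMIs (84 and 9), and 158 genes were higher among depth-matched cells. Leaving out 1 library at a time gave 474 to 639 higher and 55 to 100 lower genes, with 100 lower without the control library and 89 without the knockout library. Against all 7 other clusters the mean log2 ratio reversed for Ccl7 (-1.03), Ccl8 (-0.60), Cd209f (-1.23), F13a1 (-1.16), Mrc1 (-1.01) and Pf4 (-1.21), where clusters 03 and 07 join the comparison. For cuprizone against control diet, the 33 higher and 33 lower genes became 51 and 20 with TMM scaling, 17 and 12 thinned, 98 and 180 with no minimum and 8 and 6 with the minimum of 200 UMIs. There were 51 lower with the mean of per-cell CPM, 56 higher without each gene's top cell and 21 lower among depth-matched cells. For knockout against wild type, 32 were lower thinned, 98 higher and 213 lower with no minimum, and 6 and 21 with the minimum of 200. For heterozygote against wild type there were 7 and 6 thinned, 111 and 77 with no minimum, 6 and 0 with the minimum of 200, and 6 lower among depth-matched cells. Fewer genes reach the minimum after thinning or at 200 UMIs; the cause of the other shifts was not tested. The ratio of genes per cell was 1.01 at 2000 UMIs and 1.03 at 5000. Of the 10 most variable genes 6 were kept without the cells rich in border-macrophage or neutrophil markers, a choice made after seeing the data. Of the single values, 1053 moved little, 120 moved more and 6 reversed. No paired analysis was possible because each group holds 1 library. Depth limits low genes: at the minimum of 50 UMIs the counting interval is wide.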
